A study of Mus musculus with 30 samples.

Results

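Counts of 10 platelet and megakaryocyte genes were followed through sorted spleen cells of mice that overexpress Tlr7 and of wild-type mice. The genes were Pf4, Ppbp, Itga2b, Itgb3, Gp9, Gp1bb, Gp5, Gp6, Treml1 and Clec1b, chosen by name as components of platelets, and all 10 were found among the 37991 gene identifiers of the count table. The series held 30 RNA-seq libraries, each from 500 cells, of 12 female mice aged 9.4 to 15.7 weeks. The 6 TLR7.1 mice, a line that carries extra copies of Tlr7, the receptor for single-stranded RNA, gave inflammatory hemophagocytes (TLR7.1 iHPC), red pulp macrophages (TLR7.1 RPM) and Ly6C-high monocytes (TLR7.1 Mono). The 6 WT B6 mice gave red pulp macrophages (WT RPM) and monocytes (WT Mono), so that the iHPC group came from TLR7.1 mice only. Every population was gated as live, CD45.2+, SiglecF- and Ly6G-. The iHPC gate further took Ly6C-, CD31-high, VCAM-low, F4/80-low, CD11b+ cells, the RPM gate Ly6C-, CD31-low, VCAM-high, F4/80+ cells with little or no CD11b, and the Mono gate Ly6C+, Ccr2+, CD11b+ cells. CD31 is also carried by platelets and megakaryocytes as well as by leukocytes and endothelium, so it is part of the gate that defines the iHPC group; its part in the results below was not tested.

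Platelets are fragments shed by megakaryocytes, which in mice reside in the spleen as well as the bone marrow, and they keep RNA made by their parent cell but have no nucleus. They adhere through surface glycoproteins, signal through receptors that bear or recruit tyrosine-based motifs, and release proteins stored in granules. Macrophages of the spleen clear aged blood cells, platelets among them, and hemophagocytes are phagocytes found with blood cells inside them. A bulk library counts RNA of the sorted cells together with RNA of anything inside or attached to them, and these sources cannot be told apart in these counts. Nor can a smaller number of RNA-bearing cells be told apart from less RNA in each.

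The sorted populations carried the genes of their gates. Vcam1, a red pulp macrophage adhesion molecule, averaged 28.8 CPM (counts scaled to the size of each library) in TLR7.1 iHPC, 2486.2 CPM in TLR7.1 RPM, 1.9 CPM in TLR7.1 Mono, 3335.4 CPM in WT RPM and 5.1 CPM in WT Mono. Ccr2, the monocyte chemokine receptor, averaged 1528.3 CPM in TLR7.1 Mono and 1278.6 CPM in WT Mono, and at most 12.8 CPM elsewhere. Pecam1, which encodes CD31, averaged 516 ± 78.6 CPM in TLR7.1 iHPC, 123 ± 44.9 CPM in TLR7.1 RPM and 13.0 ± 4.81 CPM in TLR7.1 Mono, with 164 ± 51.4 CPM in WT RPM and 10.2 ± 3.86 CPM in WT Mono (SD, n = 6 each). Tlr7 itself averaged 1029.1 CPM in TLR7.1 RPM against 222.2 CPM in WT RPM, and 995.2 CPM in TLR7.1 Mono against 306.8 CPM in WT Mono. Depth differed between groups. Totals ran from 292507 to 1420486 counts in TLR7.1 iHPC, 268275 to 1257240 in TLR7.1 RPM, 1157446 to 1719010 in TLR7.1 Mono, 95002 to 1511480 in WT RPM and 1209266 to 1932427 in WT Mono. In the shallowest library, the WT RPM of mouse 24323, a single read is worth 10.7 CPM. Both shallow TLR7.1 libraries, the iHPC and the RPM of mouse 24380, stand apart in the results below.

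Promoter sequences are shown for 4 genes, because Pf4, Ppbp and Itga2b had their highest group medians in TLR7.1 iHPC and Clec1b had its highest in RPM. They were taken from RefSeq on GRCm38.p6, from 250 bases before to 50 bases after each annotated start, and 9 of the 10 genes matched an entry, Itgb3 being named only. Capitals mark 3 hexamers searched on both strands, AGATAA for GATA factors, GGAAGT for ETS factors and TGTGGT for RUNX factors, families known to act in megakaryocytes. Pf4 lies at chr5:90772185-90772484 on the plus strand, Ppbp at chr5:90768268-90768567 on the plus strand, Itga2b at chr11:102469834-102470133 on the minus strand and Clec1b at chr6:129397047-129397346 on the plus strand.
Pf4: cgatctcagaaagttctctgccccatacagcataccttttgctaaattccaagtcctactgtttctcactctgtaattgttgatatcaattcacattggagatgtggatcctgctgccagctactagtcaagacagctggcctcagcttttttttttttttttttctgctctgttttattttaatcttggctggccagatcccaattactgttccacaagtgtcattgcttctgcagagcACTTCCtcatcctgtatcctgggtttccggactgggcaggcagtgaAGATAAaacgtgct
Ppbp: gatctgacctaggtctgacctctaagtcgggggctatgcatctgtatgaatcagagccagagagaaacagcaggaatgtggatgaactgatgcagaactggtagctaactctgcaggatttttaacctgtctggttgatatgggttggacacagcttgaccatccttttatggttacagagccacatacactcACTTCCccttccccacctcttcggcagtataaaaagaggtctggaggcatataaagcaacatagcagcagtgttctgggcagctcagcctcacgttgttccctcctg
Itga2b: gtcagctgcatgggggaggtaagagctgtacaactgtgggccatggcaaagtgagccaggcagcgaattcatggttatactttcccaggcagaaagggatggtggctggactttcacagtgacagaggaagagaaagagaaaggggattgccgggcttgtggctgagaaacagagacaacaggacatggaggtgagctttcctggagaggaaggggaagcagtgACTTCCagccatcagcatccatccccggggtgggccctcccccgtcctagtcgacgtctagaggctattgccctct
Clec1b: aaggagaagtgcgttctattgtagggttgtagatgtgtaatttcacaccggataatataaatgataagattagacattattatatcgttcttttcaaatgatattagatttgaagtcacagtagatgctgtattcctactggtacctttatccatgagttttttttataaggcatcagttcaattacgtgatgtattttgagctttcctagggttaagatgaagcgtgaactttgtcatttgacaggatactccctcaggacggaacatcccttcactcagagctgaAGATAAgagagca
In Pf4 the ETS letters began at position -10 and the GATA letters at position 37, counted from the annotated start. Ppbp held the ETS letters at -57 and Itga2b at -26. In Pf4, Ppbp and Itga2b the printed strand reads ACTTCC, which is GGAAGT on the opposite strand. Clec1b held no ETS letters and had the GATA letters at 38. None of these matches overlapped another. Over the 9 genes, 6 promoters held the ETS letters, 4 the GATA letters and 1 the RUNX letters, against 24.1%, 11.4% and 16.9% of 27025 mouse promoters of the same length. A match of 6 letters is a description of the sequence and no evidence of binding.

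Clec1b and the other 9 genes had different orders over the groups. All 10 together summed to 232 to 349 CPM in TLR7.1 iHPC (median 298), 431 to 518 CPM in TLR7.1 RPM (median 449), 3.59 to 35.6 CPM in TLR7.1 Mono (median 16.6), 236 to 512 CPM in WT RPM (median 410) and 10.0 to 43.4 CPM in WT Mono (median 15.1), so that RPM, where Clec1b was most abundant, had the highest medians. The summed level of the 9 genes other than Clec1b ran from 180 to 324 CPM in the 6 TLR7.1 iHPC libraries (median 226), from 0 to 141 CPM in TLR7.1 RPM (median 102), from 2.40 to 35.0 CPM in TLR7.1 Mono (median 16.6), from 17.2 to 85.7 CPM in WT RPM (median 40.9) and from 7.52 to 38.7 CPM in WT Mono (median 13.2). Every iHPC library lay above every library of the other 4 groups. TLR7.1 RPM came second, with ranges that overlapped those of WT RPM and of both monocyte groups because the library of mouse 24380 held no count of any of these 9 genes. Without that library the TLR7.1 RPM values began at 84.5 CPM and overlapped only WT RPM. The number of the 10 genes with at least 1 count was highest in the iHPC and not in the deepest libraries: 8 to 10 in TLR7.1 iHPC, 1 to 8 in TLR7.1 RPM and 2 to 7 in TLR7.1 Mono, with 2 to 4 in WT RPM and 2 to 6 in WT Mono. Both monocyte groups were sequenced more deeply than the iHPC, by median total.

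**Figure D1:**
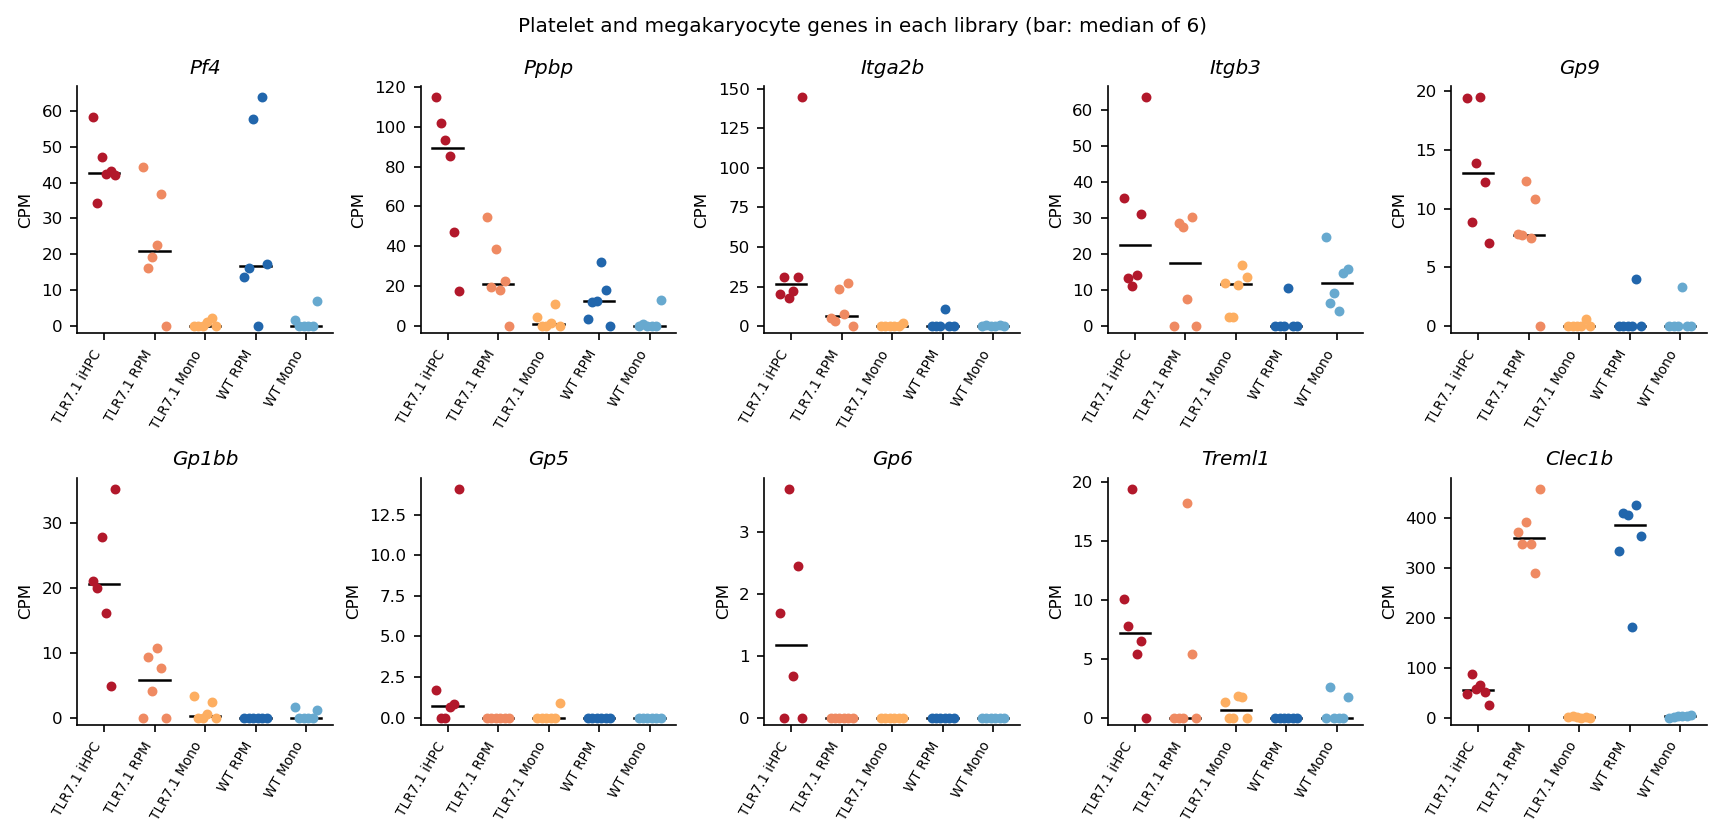
Level of each of the 10 genes, in CPM after TMM scaling, in each library (points) of the 5 groups, 6 libraries each, with the group median as a bar and a separate linear axis per gene. For Pf4, Ppbp, Itga2b, Gp9, Gp1bb and Clec1b every TLR7.1 iHPC library lies above every TLR7.1 Mono library, a share not computed over all genes. Clec1b alone is higher in TLR7.1 RPM, at 290 to 458 CPM, than in TLR7.1 iHPC, at 24.7 to 86.5 CPM.

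The stored chemokines were the most abundant members in iHPC per unit of annotated exon length, a measure that is uncertain for Clec1b. Pf4 encodes platelet factor 4, an alpha-granule chemokine that binds heparin. Its level was 34.4 to 58.2 CPM in TLR7.1 iHPC (median 42.8), 0 to 44.3 CPM in TLR7.1 RPM (median 20.9), 0 to 2.33 CPM in TLR7.1 Mono (median 0), 0 to 63.7 CPM in WT RPM (median 16.6) and 0 to 7.03 CPM in WT Mono (median 0). The iHPC libraries lay above all libraries of both monocyte groups, while RPM of either genotype spread from 0 to values inside or above the iHPC range. Ppbp encodes pro-platelet basic protein, the precursor of several neutrophil-attracting chemokines of the alpha granule. It measured 17.6 to 115 CPM in TLR7.1 iHPC (median 89.3), 0 to 54.7 CPM in TLR7.1 RPM (median 21.1), 0 to 11.1 CPM in TLR7.1 Mono (median 0.909), 0 to 32.1 CPM in WT RPM (median 12.4) and 0 to 12.9 CPM in WT Mono (median 0). The lowest iHPC value was that of mouse 24380, and without it the other 5 ran from 47.4 CPM upward. Divided by exon length, Ppbp stood at 70.9 ± 34.0 CPM per kb and Pf4 at 61.9 ± 10.9 CPM per kb in iHPC (SD, n = 6), a difference within their spread, and the next gene, Gp9, at 15.3 ± 5.90 CPM per kb. Clec1b stood at 11.0 ± 4.01 CPM per kb, but its exon length includes a long retained intron, so its rank is uncertain.

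Itga2b and Itgb3 encode the 2 chains of the platelet fibrinogen receptor, and Itgb3 also pairs with another alpha chain on many other cells. Itga2b measured 17.6 to 144 CPM in TLR7.1 iHPC (median 26.6), 0 to 27.1 CPM in TLR7.1 RPM (median 6.36), at most 2 counts in TLR7.1 Mono, 0 to 10.7 CPM in WT RPM and 0 to 0.654 CPM in WT Mono, with a median of 0 CPM in the last 3 groups. The value of 144 CPM is again mouse 24380, and the WT RPM maximum is a single read in the shallowest library. Itgb3 measured 11.1 to 63.4 CPM in TLR7.1 iHPC (median 22.6), 0 to 30.3 CPM in TLR7.1 RPM (median 17.5), 2.40 to 16.9 CPM in TLR7.1 Mono (median 11.7), 0 to 10.7 CPM in WT RPM (median 0) and 4.18 to 24.8 CPM in WT Mono (median 12.0). It was the only gene of the 10 with counts in all 12 monocyte libraries, where Itga2b had 2 counts in TLR7.1 Mono and 2 in WT Mono. In pooled counts the ratio of Itgb3 to Itga2b was 0.781 (95% exact interval 0.623 to 0.978) in TLR7.1 iHPC, 1.67 (1.18 to 2.38) in TLR7.1 RPM, 44.5 (12.0 to 373) in TLR7.1 Mono and 56.0 (15.1 to 468) in WT Mono, while WT RPM had 1 count of each. These intervals pool the mice and cover counting error only. They leave out the spread between mice and the amplification of cDNA, which carried no molecular identifiers. In single libraries with an Itga2b count the ratio ran from 0.429 to 1.75 in TLR7.1 iHPC and from 0 to 9.25 in TLR7.1 RPM, so the 2 groups overlapped. The 9.25 came from mouse 24107, with 37 Itgb3 and 4 Itga2b counts.

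The receptor for von Willebrand factor is built from the products of Gp1ba, Gp1bb, Gp9 and Gp5. Gp9 ran from 7.04 to 19.5 CPM in TLR7.1 iHPC (median 13.1) and from 0 to 12.4 CPM in TLR7.1 RPM (median 7.78). It was detected in 1 library each of TLR7.1 Mono, WT RPM and WT Mono, at most at 3.98 CPM. Gp1bb ran from 4.90 to 35.2 CPM in TLR7.1 iHPC (median 20.5), 0 to 10.7 CPM in TLR7.1 RPM (median 5.85) and 0 to 3.31 CPM in TLR7.1 Mono (median 0.303), against no count in WT RPM and 0 to 1.71 CPM in WT Mono. Its exons overlap those of Sept5 and Gm49601 on the same strand, so its counts are uncertain; Sept5 had 0 counts in TLR7.1 iHPC and at most 1 in any other group. Gp5 was sparse, with 8 counts in 4 iHPC libraries, 4 of them from mouse 24380, and 1 count in 1 TLR7.1 Mono library. Neither RPM group nor WT Mono had a Gp5 count. Gp1ba, the ligand-binding subunit, which is not among the 10, had 19 pooled counts in TLR7.1 iHPC, 6 in TLR7.1 RPM, 8 in TLR7.1 Mono, 7 in WT RPM and 3 in WT Mono, and was detected in 3 of the iHPC libraries.

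Of the remaining receptors, Gp6 encodes the platelet collagen receptor and Treml1 a receptor of the TREM family stored in alpha granules. Gp6 had 10 counts in 4 TLR7.1 iHPC libraries, at 0 to 3.70 CPM, and none in the other 24 libraries. Treml1 was detected in 5 of 6 TLR7.1 iHPC libraries, at 0 to 19.4 CPM (median 7.15). It was found in 2 TLR7.1 RPM libraries, up to 18.2 CPM, in 3 TLR7.1 Mono libraries up to 1.82 CPM, in no WT RPM library and in 2 WT Mono libraries up to 2.62 CPM. Clec1b encodes a receptor for podoplanin that is abundant on platelets and is also made by some myeloid cells of mice. It measured 24.7 to 86.5 CPM in TLR7.1 iHPC (median 55.3), 290 to 458 CPM in TLR7.1 RPM (median 360), 0 to 2.46 CPM in TLR7.1 Mono (median 0.891), 182 to 426 CPM in WT RPM (median 386) and 0 to 4.69 CPM in WT Mono (median 2.53). Its order was therefore RPM of either genotype, then iHPC, then monocytes, with no overlap between these 3 levels, and the 2 RPM groups overlapped each other. An annotated Clec1b transcript overlaps the start of Clec9a, a dendritic cell gene. Clec9a had 0 counts in the TLR7.1 RPM library of mouse 24068, where Clec1b stood at 372 CPM, and 105 CPM in that of mouse 24107, where Clec1b stood at 347 CPM.

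**Figure D2:**
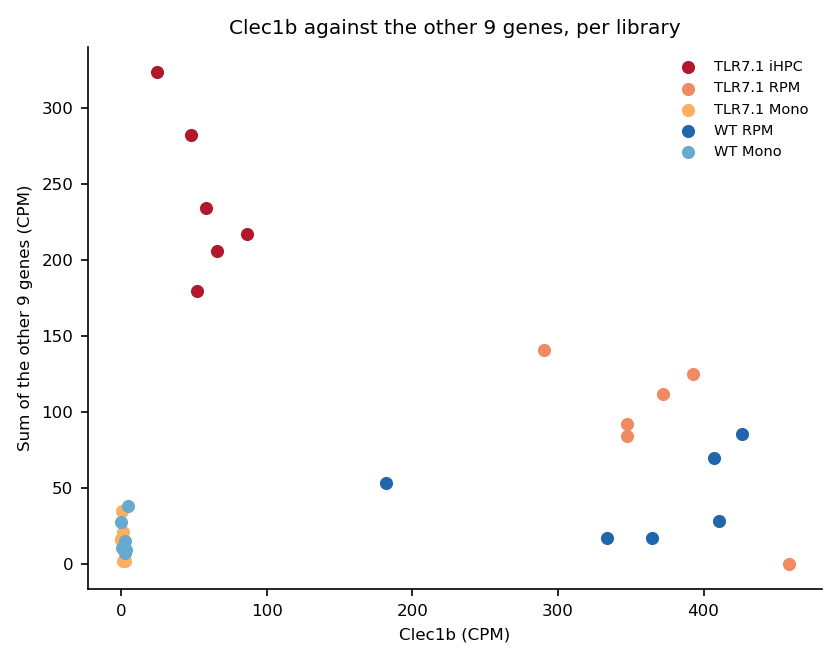
Each point is 1 library, with the level of Clec1b on the x axis and the summed level of the other 9 genes on the y axis, both in CPM on linear scales. RPM of both genotypes lie at 182 to 458 CPM of Clec1b and 0 to 141 CPM of the others, the TLR7.1 iHPC at 24.7 to 86.5 CPM and 180 to 324 CPM, and both monocyte groups near the origin.

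The proportions among the genes differed between groups as well as their levels. Clec1b made up 20.7% (95% exact interval 18.9 to 22.7) of the 1770 counts of the 10 genes in TLR7.1 iHPC, 77.5% (75.7 to 79.3) of 2043 in TLR7.1 RPM and 90.6% (89.0 to 92.0) of 1563 in WT RPM. The pooled ratio of Ppbp to Pf4 counts was 1.86 (1.61 to 2.16) in TLR7.1 iHPC, 1.05 (0.796 to 1.38) in TLR7.1 RPM and 0.388 (0.263 to 0.565) in WT RPM, and these 3 counting intervals did not overlap. Single libraries were wider, at 0.417 to 2.97 in TLR7.1 iHPC, 0.618 to 2.0 in TLR7.1 RPM and 0 to 0.760 in WT RPM, so that the lowest iHPC library, that of mouse 24380, lay within the WT RPM range. The ratio of Itga2b to Pf4 was 0.656 (0.541 to 0.793) in TLR7.1 iHPC and 0.514 (0.364 to 0.718) in TLR7.1 RPM, against 0.0097 (0.000243 to 0.0553) in WT RPM. Gp9 to Pf4 gave 0.330 (0.258 to 0.419) in TLR7.1 iHPC and 0.364 (0.246 to 0.530) in TLR7.1 RPM, against 0.0194 (0.00232 to 0.0719) in WT RPM. In WT RPM, then, 103 Pf4 counts came with 1 count of Itga2b and 2 of Gp9, where 107 Pf4 counts in TLR7.1 RPM came with 55 and 39.

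The first tested comparison set iHPC against red pulp macrophages of the same mice and asked how the hemophagocytes differ from the resident phagocyte. Clec1b fell in TLR7.1 iHPC, averaging 55.9 ± 20.4 CPM against 368 ± 56.0 CPM in TLR7.1 RPM (SD, n = 6 each; log2 fold change -2.67 ± 0.27 SE, adjusted p = 1.4e-09, edgeR quasi-likelihood test), and was lower in the iHPC of all 6 mice. On the log2(CPM + 1) scale this difference was -2.46, -2.42 and -3.45 on the collection days of 13, 21 and 26 December. No other member passed the threshold. Of the 7 members that passed the filter on low counts, 0 were higher and 1 was lower, where 13.6% of the 11030 genes tested were higher and 13.5% lower, and the median log2 fold change of the 7 was 0.91 against -0.005 over all genes. At an unadjusted p under 0.05 the edgeR test gave 3 higher, and DESeq2's adjusted test gave 0. Itga2b came closest, at 44.4 ± 49.3 CPM in TLR7.1 iHPC and 11.0 ± 11.3 CPM in TLR7.1 RPM (log2 fold change 1.85 ± 0.71, adjusted p = 0.0518). Ppbp gave 1.59 ± 0.77 (adjusted p = 0.13), Gp1bb 1.73 ± 0.77 (0.0994), Pf4 0.91 ± 0.66 (0.339), Gp9 0.75 ± 0.69 (0.47) and Itgb3 0.66 ± 0.66 (0.506) in the same fit.

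Mouse identity bears on this comparison, since both libraries of a pair came from 1 animal. Pf4, Ppbp and Gp9 were higher in the iHPC of 6 of 6 mice, Itga2b and Gp1bb of 5 and Itgb3 of 4. The random replicate block was fitted with limma-voom, another test than edgeR's, and its estimated correlation within mice was 0.0474. Effects of the block and of the change of test therefore cannot be told apart. With the mouse as a random replicate block, 4 members were higher in TLR7.1 iHPC: Ppbp by 1.93 (adjusted p = 0.00944), Itga2b by 1.71 (0.0158), Gp1bb by 1.67 (0.0312) and Pf4 by 1.22 (0.0488), all log2 fold changes. A fixed replicate block, fitted to the 18 TLR7.1 libraries, called Ppbp, at 1.8 (adjusted p = 0.0409), and gave an adjusted p of 0.118 for Itga2b, 0.156 for Gp1bb and 0.161 for Pf4. The TLR7.1 RPM library of mouse 24380, with none of these transcripts in 268275 counts, lies far from the other 5. Leaving out mouse 24308 or mouse 24261 took Itga2b past the threshold, at 2.41 and 2.34, and leaving out any other single mouse called no member higher.

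Against the monocytes of the same mice, 6 of the 7 tested members rose in TLR7.1 iHPC. These were Pf4, Ppbp, Itga2b, Gp9, Gp1bb and Clec1b, where 19.3% of all genes tested were called higher and 19.4% lower. For each of the 6, all 6 iHPC libraries lay above all 6 TLR7.1 Mono libraries. The share of all genes whose libraries separate in this way was not computed. Pf4 averaged 44.6 ± 7.85 CPM in TLR7.1 iHPC against 0.590 ± 0.981 CPM in TLR7.1 Mono (log2 fold change 5.90 ± 0.88, adjusted p = 1.9e-06). Ppbp averaged 76.7 ± 36.8 CPM against 2.92 ± 4.39 CPM in the same order (4.64 ± 0.89, adjusted p = 7.8e-05). Gp1bb averaged 20.8 ± 10.3 CPM in TLR7.1 iHPC and 1.04 ± 1.43 CPM in TLR7.1 Mono (4.12 ± 0.86, adjusted p = 0.000335), and Clec1b 55.9 ± 20.4 CPM and 0.928 ± 0.941 CPM (5.74 ± 0.41, adjusted p = 2.0e-13). Itga2b and Gp9 had only 2 and 1 counts in the monocytes, so their size is better read from pooled ratios, which were 138 (95% exact interval 37.6 to 1146) for Itga2b and 138 (24.2 to 5529) for Gp9. The median log2 fold change of the 7 tested members was 5.74, against 0.005 over all genes. Members near 0 in monocytes passed the filter on low counts through groups where they were higher. The count of 6 and this median are therefore descriptions only.

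Itgb3 did not pass in that comparison, at 28.1 ± 20.1 CPM in TLR7.1 iHPC and 9.78 ± 6.00 CPM in TLR7.1 Mono (1.45 ± 0.66, adjusted p = 0.0785), although it was higher in the iHPC of 6 of 6 mice. With the mouse as a random replicate block it passed, with 1.45 and an adjusted p of 0.0496. The 3 members left out by the filter were fitted only when no filter was applied, a setting in which 11.6% of 20439 genes were higher. Gp6 (adjusted p = 0.0153) and Treml1 (0.0351) then passed and Gp5 (0.0683) did not; Gp6 was at least 5.02-fold higher in iHPC than the limit that 3 counts over the 6 monocyte libraries allow. By collection day, the iHPC minus Mono difference in log2(CPM + 1) was 5.52, 4.01 and 5.51 for Pf4 and 4.71, 4.77 and 4.96 for Itga2b on 13, 21 and 26 December.

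**Figure D3:**
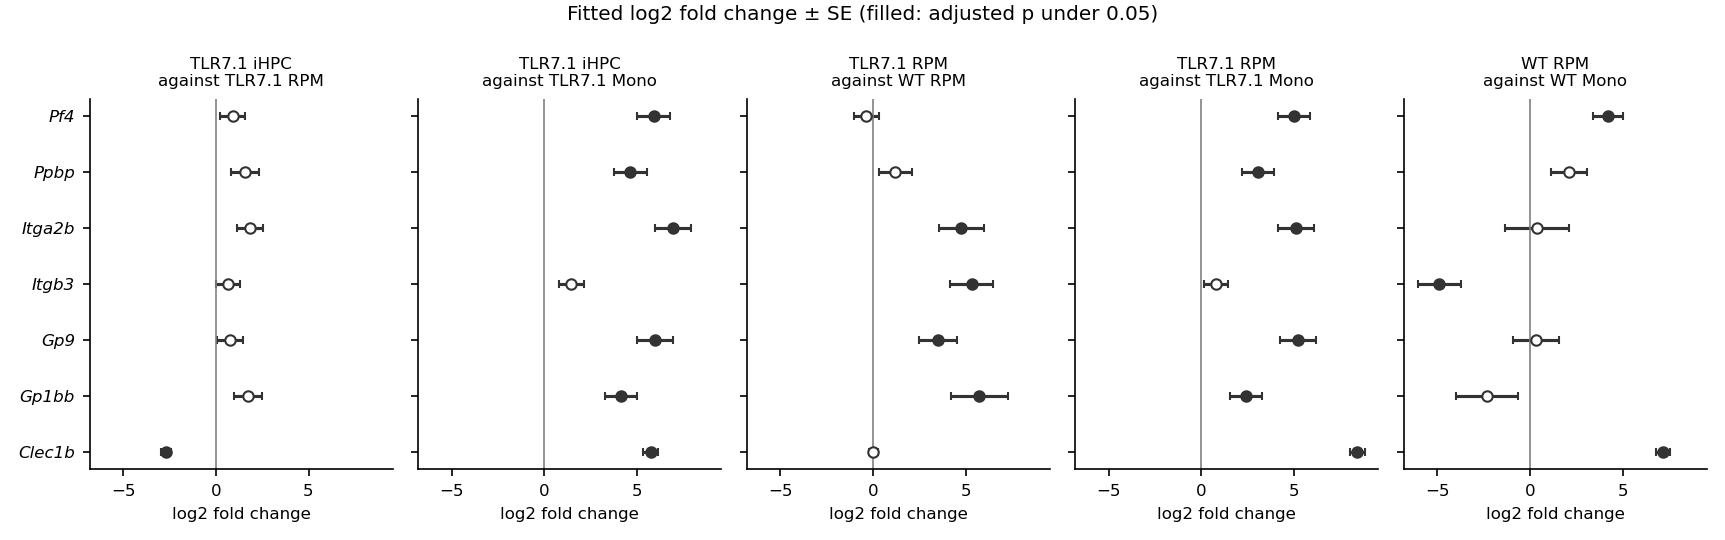
Fitted log2 fold change (x axis, point) and its standard error (bar) for the 7 genes that passed the filter on low counts, in 5 comparisons named above each panel, the first group over the second; filled points had an adjusted p under 0.05. TLR7.1 iHPC against TLR7.1 Mono has 6 filled points to the right, and TLR7.1 RPM against WT RPM has 4, of which Gp1bb rests on 0 counts in WT RPM.

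Overexpression of Tlr7 was examined within each population. In red pulp macrophages 4 members rose in TLR7.1 mice, namely Itgb3, Itga2b, Gp1bb and Gp9, against 4.48% of genes tested that were higher and 3.77% that were lower. Itgb3 had 92 counts in TLR7.1 RPM and 1 in WT RPM, a pooled ratio of 74.2 (95% exact interval 13.0 to 2962; adjusted p = 0.00349). Itga2b had 55 counts in TLR7.1 RPM and 1 in WT RPM, a ratio of 44.4 (7.63 to 1783; adjusted p = 0.0117). Gp9 had 39 counts in TLR7.1 RPM and 2 in WT RPM, a ratio of 15.7 (4.07 to 134; adjusted p = 0.032). Gp1bb had 32 counts in TLR7.1 RPM and 0 in WT RPM, at least 8.60-fold more than 3 counts over the 6 WT libraries would give (adjusted p = 0.0189). For none of the 4 did the libraries of the 2 groups separate, because TLR7.1 RPM held libraries at 0 and the shallowest WT RPM library held 1 read each of Itga2b and Itgb3. With at most 2 counts in WT RPM, these members passed the filter through groups where they were higher. The count of 4 is therefore a description only.

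For the granule chemokines and Clec1b the 2 genotypes did not differ beyond the spread between mice. Pf4 averaged 23.2 ± 15.7 CPM in TLR7.1 RPM and 28.1 ± 26.1 CPM in WT RPM (log2 fold change -0.35 ± 0.68, adjusted p = 0.819), Ppbp 25.6 ± 18.8 CPM and 13.0 ± 11.4 CPM (1.21 ± 0.88, adjusted p = 0.443), and Clec1b 368 ± 56.0 CPM and 354 ± 90.9 CPM (0.02 ± 0.25, adjusted p = 0.98). The counting interval of the pooled Pf4 ratio was 0.633 to 1.11, and a miss of the threshold does not show that the 2 groups are alike. Pf4 changed direction between days, with TLR7.1 minus WT differences in log2(CPM + 1) of 0.82, 4.90 and -3.19 on 13, 21 and 26 December, where 21 December had 1 WT mouse. Itga2b gave 2.33, 0.40 and 2.30, Itgb3 2.45, 0.48 and 2.42, and Gp9 3.13, 3.33 and 1.10. The Gp9 call was lost in 8 of the 12 fits that left out 1 mouse each, where its adjusted p reached 0.0781, with no filter on low counts (0.0597) and with collection date as a term (0.0566). Gp1bb lost its call with the mouse as a random replicate block (2.32, adjusted p = 0.0634). In a fit to the 12 RPM libraries alone, which called 160 genes in place of 910, the 4 did not reach the filter on low counts and were not tested. The median log2 fold change of the 7 was 3.50, or 3.10 with Gp1bb at its bound, against -0.01 over all genes. Members near 0 in WT RPM passed the filter through other groups, so this median is a description only.

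In monocytes 0 members were called higher or lower in TLR7.1 mice, against 1.8% of genes tested higher and 0.299% lower. Here edgeR's test at an unadjusted p under 0.05 gave 0 higher and 1 lower, and DESeq2's adjusted test 0 and 0. Only Itgb3 had 30 or more counts in either group, at 9.78 ± 6.00 CPM in TLR7.1 Mono and 12.6 ± 7.52 CPM in WT Mono (-0.36 ± 0.65, adjusted p = 1).

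Red pulp macrophages and monocytes were also set against each other within each genotype. In TLR7.1 mice 6 members were higher in RPM than in Mono, where 23.9% of genes tested were higher and 22.6% lower. They were the same 6 members named for iHPC, and Clec1b (8.41 ± 0.40, adjusted p = 4.8e-18) was the only one whose groups did not overlap. Pf4 gave 4.99 ± 0.88 (adjusted p = 2.0e-05), Ppbp 3.05 ± 0.87 (0.00455) and Gp1bb 2.38 ± 0.86 (0.0248), and the Gp1bb call was lost without mouse 24107, 24261 or 24304. Pooled ratios were 56.6 (15.0 to 479) for Itga2b and 80.3 (13.6 to 3252) for Gp9. The count of 6 is again a description only, as members near 0 in monocytes passed the filter through other groups. In WT mice Clec1b (7.18 ± 0.36, adjusted p = 2.0e-17) and Pf4 (4.22 ± 0.81, adjusted p = 6.4e-05) were higher in RPM and Itgb3 was lower, with 23.7% of genes tested higher and 22.5% lower. Itgb3 had 1 count in WT RPM and 112 in WT Mono, a ratio of 0.0224 (0.000561 to 0.127; adjusted p = 0.00084). Ppbp, at 13.0 ± 11.4 CPM in WT RPM and 2.37 ± 5.18 CPM in WT Mono, did not pass (2.09 ± 0.96, adjusted p = 0.0714) but did so without mouse 24416, whose WT Mono library held most Ppbp of its group (5.09), and with the mouse as a random replicate block (3.47, adjusted p = 0.00481). Whether the RPM against Mono differences depend on genotype was not tested.

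Further platelet genes, none of them among the 10, moved in both directions, and many of them are also made by myeloid cells. Among 11 tested of 23 further platelet receptors and adhesion molecules, 4 were higher and 1 lower in TLR7.1 iHPC against TLR7.1 RPM, 4 higher and 4 lower against TLR7.1 Mono, and 1 higher and 1 lower in TLR7.1 RPM against WT RPM. Of all genes tested, 13.6% were higher and 13.5% lower in the first of these comparisons, 19.3% and 19.4% in the second, and 4.48% and 3.77% in the third. Esam, an adhesion molecule of platelets and endothelium, had 514 counts in TLR7.1 iHPC and 14 in TLR7.1 RPM (log2 fold change 4.63 ± 0.77, adjusted p = 3.2e-05). WT RPM had 116 Esam counts, and Esam was lower in TLR7.1 RPM than in WT RPM (-2.98 ± 0.78, adjusted p = 0.0161, edgeR). Ptgir, the prostacyclin receptor, had 7 counts in TLR7.1 iHPC and 319 in TLR7.1 Mono (-4.69 ± 0.61, adjusted p = 1.3e-06). Of 18 tested granule and secreted protein genes, 3 were higher and 0 lower in TLR7.1 iHPC against TLR7.1 RPM, and 4 were higher and 5 lower against TLR7.1 Mono. For the 0, edgeR's test at an unadjusted p under 0.05 gave 3 lower and DESeq2's adjusted test 1. Pdgfb, a platelet-derived growth factor chain, rose by 4.26 ± 0.55 (adjusted p = 1.2e-07) and Clu, encoding clusterin, by 4.47 ± 1.01 (0.000646) in TLR7.1 iHPC over TLR7.1 Mono, while Thbs1, encoding thrombospondin, fell by 4.16 ± 0.35 (1.3e-11). The median log2 fold change was 0.65 for the receptors and 0.24 for the granule genes against TLR7.1 RPM, and 0.21 and 0.10 against TLR7.1 Mono, beside -0.005 and 0.005 over all genes.

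Signalling, cytoskeletal and prostanoid genes were also called in both directions, beside the same shares of all genes tested. Of 22 tested platelet signalling genes 9 were higher and 2 lower in TLR7.1 iHPC against TLR7.1 RPM, and 12 higher and 6 lower against TLR7.1 Mono; Rasgrp2, an activator of the small GTPase that opens platelet integrins, fell by 2.18 ± 0.19 against TLR7.1 RPM (adjusted p = 9.2e-11). Of 14 tested cytoskeletal genes 4 were higher and 4 lower against TLR7.1 RPM, and 5 higher and 5 lower against TLR7.1 Mono. Median log2 fold changes were 0.31 and 0.71 for the signalling genes and 0.24 and 0.20 for the cytoskeletal genes, against TLR7.1 RPM and TLR7.1 Mono in turn. Of 5 tested thromboxane and prostanoid synthesis genes 1 was higher and 2 lower against TLR7.1 RPM, and 2 higher and 2 lower against TLR7.1 Mono. Ptgs1, the cyclooxygenase that feeds thromboxane synthesis in platelets, had 40 counts in TLR7.1 iHPC and 1641 in TLR7.1 RPM (log2 fold change -5.97 ± 0.47, adjusted p = 6.9e-12), and Tbxas1, thromboxane synthase, had 54 and 902 (-4.55 ± 0.36, adjusted p = 7.6e-12). Single genes regarded as platelet markers went both ways. Alox12 had 72 counts in 6 TLR7.1 iHPC libraries and 0 in TLR7.1 RPM. Myl9 had 219 counts in TLR7.1 iHPC and 70 in TLR7.1 RPM, and Itga2 had 26 and 0. Mpig6b went the other way, with 9 counts in TLR7.1 iHPC and 22 in TLR7.1 RPM. Several others were at or near 0. Tubb1, the platelet beta-tubulin, had 13 counts in 2 TLR7.1 iHPC libraries, none in either RPM group and 10 in 1 WT Mono library. Selp, encoding P-selectin, had 0 counts in TLR7.1 iHPC, TLR7.1 RPM and WT RPM, against 29 in TLR7.1 Mono and 3 in WT Mono. Mmrn1, a platelet granule protein, had 17 counts in TLR7.1 iHPC and 4 in TLR7.1 RPM and was at 0 elsewhere, and Rab27b, a granule transport GTPase, had 23 and 19 and was at 0 elsewhere.

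Regulators of the megakaryocyte lineage were called in both directions. Of 18 tested, 5 were higher and 3 lower in TLR7.1 iHPC against TLR7.1 RPM, 3 higher and 2 lower against TLR7.1 Mono, and 3 higher and 1 lower in TLR7.1 RPM against WT RPM, where all genes tested gave 13.6% and 13.5%, 19.3% and 19.4%, and 4.48% and 3.77%. Runx1 averaged 232 ± 79.5 CPM in TLR7.1 iHPC and 63.8 ± 34.0 CPM in TLR7.1 RPM (log2 fold change 1.89 ± 0.26, adjusted p = 6.6e-07). Nfe2, which drives late megakaryocyte maturation and is also made in erythroid and myeloid cells, averaged 31.3 ± 13.2 CPM in TLR7.1 iHPC, 121 ± 119 CPM in TLR7.1 RPM and 396 ± 23.7 CPM in TLR7.1 Mono, and fell in TLR7.1 iHPC against both. Tal1, shared by the erythroid and megakaryocyte lineages, fell to 3.14 ± 4.19 CPM in TLR7.1 iHPC against 112 ± 69.7 CPM in TLR7.1 RPM (-5.52 ± 0.88, adjusted p = 1.0e-05). Tal1 (3.44 ± 0.82, adjusted p = 0.00714), Gfi1b (3.44 ± 0.83, 0.00854) and Nfe2 (2.73 ± 0.44, 0.000165) were the 3 that rose in TLR7.1 RPM against WT RPM. Vwf, whose product is bound by the Gp1bb complex and which endothelium also makes, averaged 10.0 ± 7.29 CPM in TLR7.1 iHPC, 36.7 ± 21.9 CPM in TLR7.1 RPM, 2.93 ± 3.19 CPM in TLR7.1 Mono, 71.3 ± 44.0 CPM in WT RPM and 4.01 ± 4.83 CPM in WT Mono. The summed level of 13 endothelial genes stood at 48.8 to 150 CPM in TLR7.1 iHPC. It stood at 134 to 494 CPM in TLR7.1 RPM and 344 to 557 CPM in WT RPM. Most of each sum came from 1 gene. Esam, also named above as a platelet gene, averaged 88.4 CPM of a mean sum of 100 CPM in TLR7.1 iHPC. Stab2 averaged 272 CPM of 283 CPM in TLR7.1 RPM and 413 CPM of 443 CPM in WT RPM. The part of endothelial RNA in the Vwf values was not tested.

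Transcripts of other blood cells moved with some of these results. Erythroid genes, 25 in the table, summed to 1779 to 4568 CPM in TLR7.1 iHPC, 5509 to 7723 CPM in TLR7.1 RPM, 139 to 479 CPM in TLR7.1 Mono, 697 to 7098 CPM in WT RPM and 86.0 to 375 CPM in WT Mono, and every one of the 25 had counts in both TLR7.1 phagocyte groups. Of these 25, 17 rose in TLR7.1 RPM against WT RPM (4.48% of all genes tested were higher), beside the rise of Itga2b, Itgb3, Gp9 and Gp1bb, and their part in it was not tested. Between TLR7.1 iHPC and TLR7.1 RPM the 2 sets went opposite ways: 17 erythroid genes fell in TLR7.1 iHPC (13.5% of all genes tested were lower), with sums that did not overlap, while the 9 platelet genes summed higher in every iHPC library. The TLR7.1 RPM library of mouse 24380 had the highest erythroid sum, 7723 CPM, and no count of the 9 genes.

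Basophil and mast cell genes, 15 in number, summed to 142 CPM in the TLR7.1 iHPC of mouse 24261 and to 2912 to 5169 CPM in the other 5 iHPC libraries, and to at most 42.8 CPM in any other library; 3 of the 15 were at 0 in iHPC. In the iHPC of mouse 24261 Pf4 stood at 47.2 CPM, Ppbp at 93.5 CPM, Itga2b at 17.6 CPM and Clec1b at 58.3 CPM, and the sum of the 9 genes at 234 CPM, above the iHPC median of 226 CPM. Itga2b and Itgb3, at 11.1 CPM, were the lowest of the 6 there, and Gp5 was at 0. The part of basophil and mast cell RNA in the iHPC levels was not tested. Neutrophil genes summed to 28.6 to 1490 CPM in TLR7.1 iHPC, highest in mouse 24380, against 8.67 to 420 CPM in TLR7.1 RPM, and B cell genes to 747 to 1405 CPM in TLR7.1 iHPC against 1383 to 3845 CPM in TLR7.1 RPM. Stem and progenitor genes, 12 in number, summed to 20.4 to 169 CPM in TLR7.1 iHPC, 0 to 56.6 CPM in TLR7.1 RPM, 20.9 to 61.2 CPM in TLR7.1 Mono, 0 to 72.0 CPM in WT RPM and 42.3 to 118 CPM in WT Mono, overlapping between all groups.

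**Figure D4:**
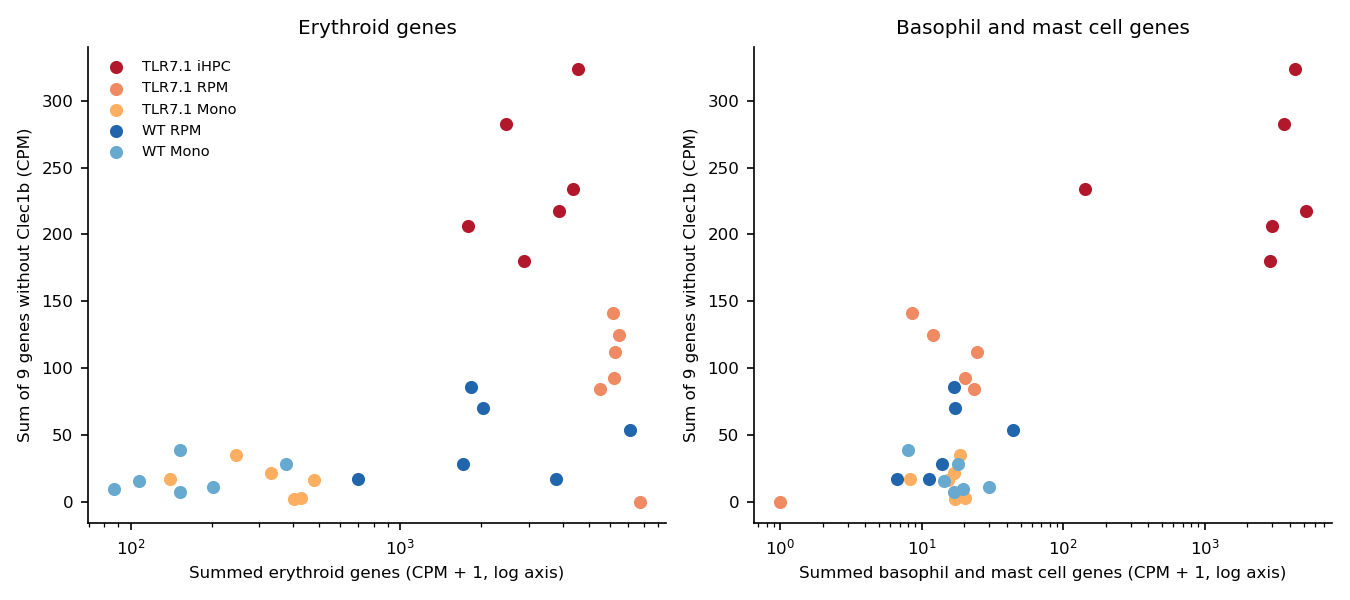
Each point is 1 library; the y axis is the summed level of the 9 genes without Clec1b in CPM, and the x axis, logarithmic, the summed level of erythroid genes (left panel) or of basophil and mast cell genes (right panel) in CPM plus 1. TLR7.1 RPM lie to the right of TLR7.1 iHPC on the erythroid axis but below them on the platelet axis, and the iHPC library at 142 CPM of basophil and mast cell genes lies among the other iHPC libraries on the platelet axis.

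Within groups, none of the relations of Pf4 that were computed passed the threshold. Over 6 libraries, 11 relations of Pf4 with Ppbp, Itga2b, erythroid genes or basophil and mast cell genes were computed in TLR7.1 iHPC, TLR7.1 RPM and WT RPM, and the smallest adjusted p was 0.519 (exact permutation tests, two-sided). The closest was Pf4 with Ppbp in TLR7.1 RPM, with Pearson's r = 0.963 (exact permutation p = 0.0472) and Spearman's rho = 0.714 (exact permutation p = 0.136). Without the 2 libraries farthest from the median of Pf4 its r was -0.089, so that relation rests on those 2. In TLR7.1 iHPC the r of Pf4 with Ppbp was 0.198 and with Itga2b -0.311.

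Across all 30 libraries, genes whose log2(CPM + 1) profile was among the most like the mean of the 7 tested members were Pik3ap1, St3gal6, Cd300e, Bcl2l15, Fcgr4, Siglece, Mllt3 and Nrgn, with r from 0.901 for Pik3ap1 to 0.863 for Nrgn, besides 1 identifier with no symbol. Most like Pf4 alone were Rhoc (r = 0.912), Ctla2a (0.900), Cd300e (0.888), Heg1 (0.867) and Ppm1h (0.862). These points share groups, mice and depth, so the values describe likeness over the 5 groups and carry no test.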

How the data were processed

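Per the labels' protocols, each of 30 libraries started from 500 sorted spleen cells lysed in SMART-Seq v4 buffer, whose amplified cDNA went into Nextera XT libraries. The authors deposited 1 table of whole-number read counts per Ensembl gene, with no normalization. Per the submitters' processing notes the build was NCBIM37 and the tools, with no role stated, included HTSeq 0.4.1, SAMtools, Picard, FastQC, TopHat, Bowtie and CASAVA 1.8.2. Annotation release, strand setting and rule for overlapping genes: not given in the sources used here. Library totals ran from 95002 to 1932427 counts, and at the shallow end 1 read is worth about as much as the level of several of the genes.

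Symbols and exon lengths came from GENCODE M21 on GRCm38, joined by identifier, and 32919 of 37991 identifiers had a symbol. That is another build than the counts', so coordinates are given only for RefSeq promoters on GRCm38.p6. Exon length is the union of all annotated exons, which for Clec1b includes a long retained intron and so lowers its level per kb.

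Each library was placed in its group by its label, 6 in each of 5 groups. edgeR's filterByExpr kept 11030 genes, among them 7 of the 10 members (not Gp5, Gp6 and Treml1). It was run over all 30 libraries, so a gene near 0 in some groups could pass through others where it was high. TMM set the scaling, and edgeR 4.0.16 (with limma 3.58.1 in R 4.3.3) fitted a robust quasi-likelihood model of the 5 group means over the 30 libraries. Its two-sided p-values carry a Benjamini-Hochberg adjustment over all genes tested, and a call is an adjusted p under 0.05. CPM are counts divided by the TMM-scaled library size in units of 1e+06 counts. Pooled ratios carry exact 95% intervals, which cover counting error and leave out the spread between mice. The script was tested on simulated counts. Alternatives were DESeq2 1.42.0 (size factors, and its own test), other filters, collection date as a term, the 12 libraries compared alone, the mouse as a fixed or random block, shallow libraries left out, and each mouse left out. The fixed block stayed in edgeR, while the random block used limma-voom throughout.

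The labels give libraries of 1 mouse the same number, so groups of the same genotype are paired by animal. Over 24 such pairs the correlation of deviations from group means ran from -0.0795 to 0.196, with 2 over 0.1. Genes named besides the 10 were, in each list and comparison, up to 4 with the largest change among those called with at least 20 CPM in the higher group, plus markers whose levels bear on the question, picked after their values were seen. The members and the gene lists were chosen with earlier results of these data known. Some results of genes besides the 10 are not reported here.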

Additional observations from a re-analysis of the deposited data

Results flagged for a closer look

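Of 27 combinations of gene and group with enough counts to examine, 4 held a library that stood far from the other 5 of its group, measured by its gap to the nearest library as a share of the whole range (over 0.625). For normally distributed values this limit would flag about 1 group in 20. Sparse counts with many zeros are not so distributed, so the 4 flags cannot be set against that rate.

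Itga2b stood at 144 CPM in the TLR7.1 iHPC of mouse 24380, a library of 292507 counts, and at 17.6 to 31.1 CPM in the other 5. Pf4, at 42.3 CPM, was in the middle of its group there, and Ppbp, at 17.6 CPM, the lowest. Treml1 stood at 18.2 CPM in the TLR7.1 RPM of mouse 24304 and at 0 to 5.42 CPM in the other 5. In the WT Mono of mouse 24416 Pf4 stood at 7.03 CPM and Ppbp at 12.9 CPM, against at most 1.71 CPM and 1.31 CPM in the other 5.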

How the results depend on the processing

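Of 200 recomputed counts of members 187 stayed within 1.5 times the reported count, and of 518 recomputed fold changes 485 kept both direction and side of the threshold, 14 newly passed, 14 no longer passed and 5 changed sign. For TLR7.1 iHPC against TLR7.1 RPM, where 0 members were higher, 1 was with DESeq2 size factors (Itga2b), 1 with collection date as a term (Itga2b), 1 in the 12 libraries alone (Ppbp), 1 with a fixed replicate block (Ppbp) and 4 with a random replicate block, and 0 to 1 when each mouse was left out. In the 12 libraries alone, where the filter keeps other genes and fewer samples share the spread, 1753 genes were called in that comparison (2993 reported), 160 in TLR7.1 RPM against WT RPM (910 reported) with 0 members higher, where the 4 reported were below the filter and not tested, and 737 in TLR7.1 Mono against WT Mono (232 reported; 400 with a random replicate block). There, 2 members were higher in TLR7.1 RPM against TLR7.1 Mono and, also with the fixed replicate block, 1 higher and 0 lower in WT RPM against WT Mono; Pf4, and Itgb3 in WT, were below the filter in these fits. Leaving out each mouse gave 584 to 1354 genes for TLR7.1 RPM against WT RPM, the fewest without mouse 24214. The uncalled Clec1b change in that comparison turned to -0.12 with a random replicate block, to -0.11 without libraries under 300000 counts and ranged from -0.0469 to 0.112 without each mouse; that of Pf4 ranged from -0.582 to 0.0739. Without each mouse, r of Pf4 with Ppbp ranged from -0.201 to 0.615 in TLR7.1 iHPC and from -0.433 to 0.613 in WT RPM; with erythroid genes from -0.978 to 0.407 in TLR7.1 RPM and from -0.890 to 0.0343 in WT RPM; and with basophil and mast cell genes from -0.146 to 0.968 in TLR7.1 RPM and from -0.740 to 0.689 in WT RPM. Beyond these and the calls given beside the results, the blocks changed no call of a member that they tested. Causes were not tested. Depth limits the sparse genes: below about 300000 counts, 3 reads exceed 10 CPM, so Gp5, Gp6, Gp9 and Treml1 could go undetected at the levels found elsewhere.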
